A study of Homo sapiens with 6 samples.

Results

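The insulin-like growth factor (IGF) axis was followed in the parental ZR-75-1 line, luminal human breast cancer cells that express the oestrogen receptor, under treatment with the CDK4/6 inhibitor abemaciclib. It was defined by 9 genes: the receptors IGF1R, INSR and IGF2R, the adaptors IRS1 and IRS2, and the binding proteins IGFBP2, IGFBP3, IGFBP4 and IGFBP5. All 9 were matched by symbol to 1 row each among the 60656 genes of the count table, and 8 had enough counts for a test. The cells were grown in RPMI-1640 with fetal bovine serum, and received either DMSO alone or abemaciclib at 500 nM, each for 4 days, with 3 libraries in each group. All 6 libraries were of the unedited parental line, so 1 cell line in culture is the whole model, and the RB1 knockout libraries are left aside. The labels give the replicates a number only, and the methods describe RNA-seq of cell lines as made from separate cultures in each condition. The question for these genes was how the transcripts of the pathway from growth factor to adaptor stood after CDK4/6 inhibition.

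IGF1R and INSR encode receptor tyrosine kinases that bind IGFs and insulin, and on activation they phosphorylate the docking proteins IRS1 and IRS2, which recruit PI3K. IGF2R, the cation-independent mannose-6-phosphate receptor, has no kinase domain, delivers enzymes to lysosomes and removes IGF2 from the cell surface. IGF-binding proteins are secreted, hold IGFs in the extracellular space and can restrain or prolong their action. In luminal breast cancer cells, IGF signalling is a known mitogenic input, and IGF1R, IRS1 and IGFBP4 are known oestrogen-regulated genes.

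The promoters of the 4 members that passed the test are shown because they are the sequences upstream of the transcripts that moved. Each is RefSeq sequence on GRCh38.p14, from 250 bases before to 50 bases after the annotated start, read 5′ to 3′ on the strand of the gene. IGFBP5 lies at chr2:216695500-216695799 on the minus strand, IGFBP4 at chr17:40443200-40443499 on the plus strand, IGF2R at chr6:159968832-159969131 on the plus strand and IRS2 at chr13:109786534-109786833 on the minus strand. Capitals mark matches, on either strand, to the motifs listed in the next paragraph.
IGFBP5: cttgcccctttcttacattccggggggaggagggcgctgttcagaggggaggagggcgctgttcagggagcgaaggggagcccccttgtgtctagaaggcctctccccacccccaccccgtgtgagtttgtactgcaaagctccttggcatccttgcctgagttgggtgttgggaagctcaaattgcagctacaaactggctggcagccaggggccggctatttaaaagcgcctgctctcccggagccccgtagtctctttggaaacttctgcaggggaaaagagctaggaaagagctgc
IGFBP4: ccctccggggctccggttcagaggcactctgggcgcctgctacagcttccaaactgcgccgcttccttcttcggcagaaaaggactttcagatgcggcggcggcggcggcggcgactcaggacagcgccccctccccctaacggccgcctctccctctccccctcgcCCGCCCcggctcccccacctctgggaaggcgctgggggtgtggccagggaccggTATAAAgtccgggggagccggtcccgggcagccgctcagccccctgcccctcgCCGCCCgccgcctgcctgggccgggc
IGF2R: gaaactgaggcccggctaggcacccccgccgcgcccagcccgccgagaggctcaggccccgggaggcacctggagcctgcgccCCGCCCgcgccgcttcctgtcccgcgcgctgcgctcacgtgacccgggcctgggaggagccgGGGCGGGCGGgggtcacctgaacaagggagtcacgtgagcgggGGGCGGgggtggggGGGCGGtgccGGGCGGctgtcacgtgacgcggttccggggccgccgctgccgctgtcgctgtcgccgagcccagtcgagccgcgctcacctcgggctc
IRS2: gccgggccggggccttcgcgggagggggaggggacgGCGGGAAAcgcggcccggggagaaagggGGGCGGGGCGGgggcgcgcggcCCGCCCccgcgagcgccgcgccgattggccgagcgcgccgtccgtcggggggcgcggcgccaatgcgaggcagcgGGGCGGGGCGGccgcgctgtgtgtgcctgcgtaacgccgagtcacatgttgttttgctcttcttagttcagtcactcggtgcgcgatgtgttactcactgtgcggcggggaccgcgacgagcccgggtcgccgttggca

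The motifs searched, each on both strands, were the full oestrogen response element (GGTCANNNTGACC), the nuclear receptor half-site (AGGTCA), a pair of E2F sites (TTTCCCGC and TTTGGCGC), the FOXO site (TGTTTAC), the AP-1 site (TGANTCA), the GC box bound by Sp1 (GGGCGG) and the TATA box (TATAAA). All 9 members matched the promoter table, with 11 promoters because IGFBP2 has 3. The GC box was found in 8 members, every one except IGFBP5, and in 45.0% of the 35116 promoters of the same length. IRS2 held 5 GC boxes and IGF2R held 6, some of them overlapping. The TTTCCCGC form of the E2F site was found in IRS2, on the minus strand 214 bases before the start, and in INSR, 16 bases after it, against 1.63% of all promoters. IGFBP4 alone among the members held the letters TATAAA, 29 bases before its start, against 11.5% of all promoters. Only the exact letters of each motif were searched, so other forms of a site, the TATA box among them, would be missed. The half-site was found in 1 promoter of IGFBP2, against 13.8% of all promoters. No member held the full oestrogen response element (0.057% of all promoters), the FOXO site (3.42%), the AP-1 site (7.71%) or the other E2F form (0.652%). The promoter of IGFBP5 was 59.0% G and C, near the 58.7% median of all promoters, whereas those of IGFBP4 (74.0%), IRS2 (75.7%) and IGF2R (78.7%) were above the upper quartile of 68.0%. So were those of IGF1R (79.7%), IRS1 (79.3%), INSR (78.3%) and IGFBP3 (74.7%), so a high share of G and C was not particular to the members that passed the test. These matches describe letters in a short window and were not tested against the expression values.

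The 3′ mRNA libraries held between 3317860 and 4013156 counts, in which 3 counts, the limit that a count of 0 allows, came to between 0.748 and 0.904 CPM, a unit that puts every library on the same total. Such limits, and the intervals on shares, account for counting error alone, as no molecular identifiers are described. The libraries fitted the line: ESR1, GATA3 and KRT8 were at means of 210.6, 1793 and 669.2 CPM with DMSO, and 8 of 10 markers of basal cells, fibroblasts, blood and endothelium were at 0 in every library, the exceptions being COL1A1, with 35 to 57 counts, and CD68, with 1 count in 1 library. The proliferation genes MKI67, CCNA2, TOP2A and CDK1 summed to between 2638 and 2805 CPM with DMSO and between 115.3 and 121.9 CPM with abemaciclib, and MKI67 had a log2 fold change of -6.71 (edgeR, adjusted P = 4.61e-22). ESR1, the oestrogen receptor, was at 214.9, 225.5 and 191.4 CPM with DMSO and 384.5, 394.8 and 340.2 CPM with abemaciclib, a log2 fold change of 0.83 (edgeR, adjusted P = 2.92e-07). The part of either change in the results for the IGF axis was not tested.

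Levels of different genes could be set side by side because these libraries read 1 end of each transcript, so that counts do not grow with gene length. With DMSO, IGFBP5 was the most abundant member, at a mean of 2510.0 CPM scaled by TMM, followed by IGFBP2 (297.4), IGFBP4 (204.2), IGF2R (131.8), IGF1R (42.7), IRS2 (17.9), INSR (16.4) and IRS1 (7.93). The libraries of IRS2 and INSR overlapped, and each other neighbour in that order was separated. With abemaciclib the order began IGFBP5 (5929), IGFBP2 (325.6), IGFBP4 (291.7), IGF2R (196.8) and IGF1R (49.9), and ended INSR (18.4), IRS1 (4.22) and IRS2 (3.84), with overlap between IGFBP2 and IGFBP4 and between the adaptors. IGFBP3, a binding protein that carries most IGF in blood, had 0 counts in all 3 DMSO libraries and 1, 0 and 2 counts with abemaciclib. It stood at or under the limit of detection in both groups, so no fold change is given.

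**Figure D1:**
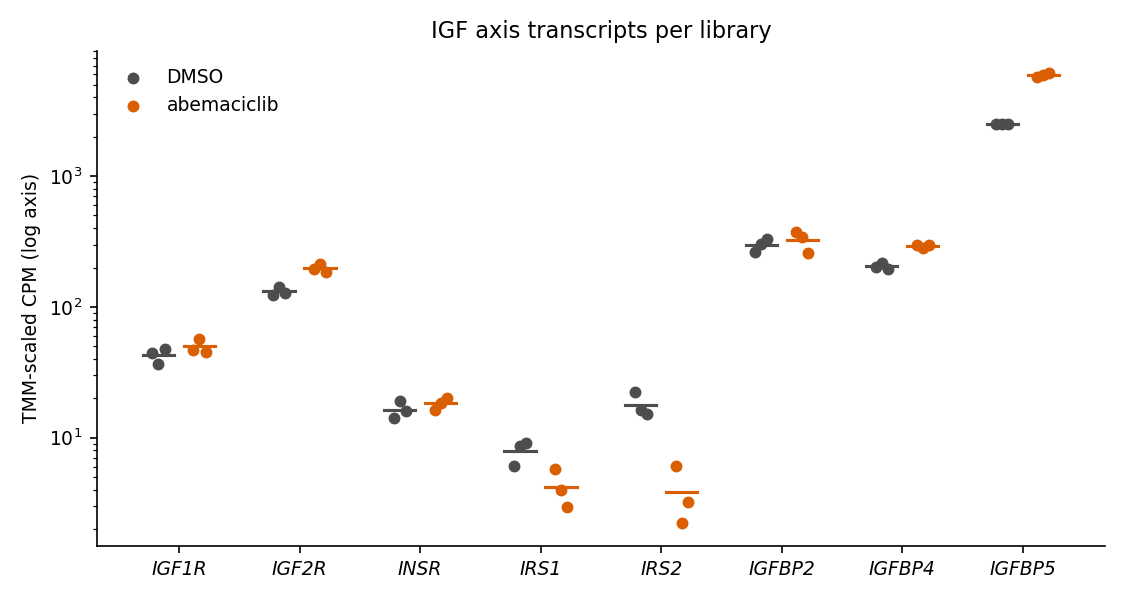
TMM-scaled CPM (log axis) of the 8 members tested, with 1 point per library and a bar at the mean of each group of 3 libraries. The points of IGFBP5, IGFBP4, IGF2R, IRS1 and IRS2 do not overlap between groups, and those of IGF1R, INSR and IGFBP2 do. The share of all genes tested that separate in this way was not computed, so the separation is description only.

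In the comparison of abemaciclib with DMSO, 3 of the 8 members tested rose (IGFBP5, IGFBP4 and IGF2R) and 1 fell (IRS2). IGF1R, INSR, IRS1 and IGFBP2 did not pass the threshold of 0.05 on the adjusted P. Over all 10863 genes tested, 12.5% were higher and 13.3% were lower by the same rule, so that 1 member lower is near the background and 3 higher is above it, in a group of only 8. The median log2 fold change was 0.20 over the 8 members and -0.0018 over all genes tested. In bulk RNA, a change within each cell and a change in the share of cells that hold the transcript cannot be told apart.

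**Figure D2:**
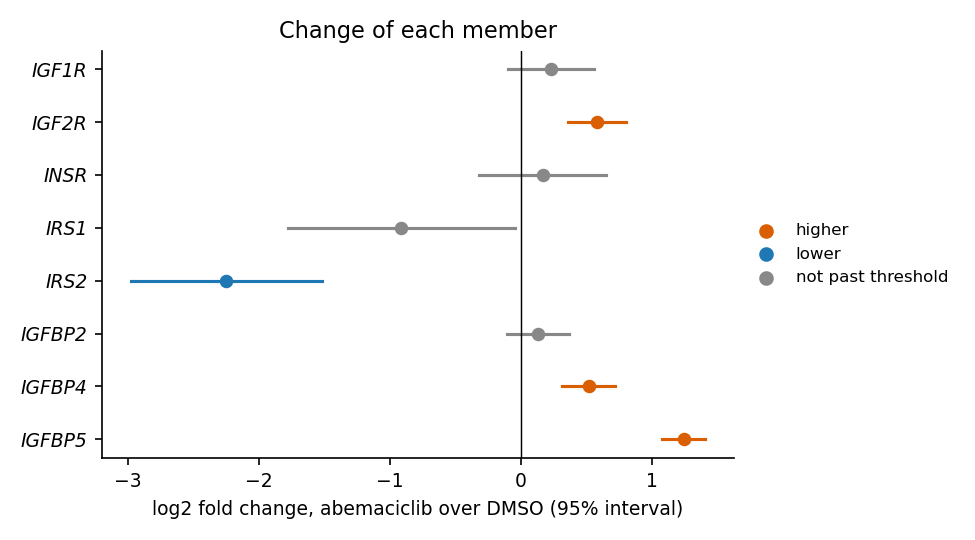
Log2 fold change of each member, abemaciclib over DMSO, with its 95% interval from the quasi-likelihood fit. IGFBP5, IGFBP4 and IGF2R lie to the right of 0 and IRS2 to the left, and the interval of IRS1, from -1.78 to -0.05, lies left of 0 although its adjusted P was 0.116.

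Among the binding proteins, IGFBP5 moved most. IGFBP5 (ENSG00000115461) lies on chromosome 2 of GRCh38 from 216672105 to 216695549, and its product binds IGFs and extracellular matrix. The DMSO libraries held 2496, 2510 and 2524 CPM and the abemaciclib libraries 5732, 5937 and 6118 CPM. Every treated library was thus above every control, and the controls lay close together. The group means were 2510.0 ± 13.9 and 5929 ± 193 CPM (SD, n = 3 in each group). The rise was 2.36-fold (95% interval 2.11 to 2.65), a log2 fold change of 1.24 with a standard error of 0.08 (edgeR, adjusted P = 7.01e-13). It ranked between 36 and 41 among all genes by counts in the DMSO libraries and between 9 and 11 in the abemaciclib libraries.

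IGFBP4 (ENSG00000141753), on chromosome 17 from 40443450 to 40457725, encodes a binding protein that mainly inhibits IGF action until proteases cleave it. It was at 202.2, 216.3 and 194.2 CPM in the DMSO libraries and at 295.6, 282.5 and 297.0 CPM in the abemaciclib libraries, with no overlap. The rise was 1.43-fold (95% interval 1.24 to 1.64), a log2 fold change of 0.51 with a standard error of 0.10 (edgeR, adjusted P = 0.000192). IGFBP2 (ENSG00000115457) is the neighbour of IGFBP5 on chromosome 2, from 216632828 to 216664436, with the 3′ ends of both genes facing each other across 7668 bases. It was at 263.4, 300.6 and 328.3 CPM with DMSO and at 373.3, 344.2 and 259.4 CPM with abemaciclib. Abemaciclib replicates 1 and 2 were above every control, and replicate 3 was below every control. The log2 fold change of IGFBP2 was 0.13 (95% interval -0.11 to 0.37, edgeR adjusted P = 0.457), and without abemaciclib replicate 3 it was 0.27 with an adjusted P of 0.0214.

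As a share of the counts of IGFBP2, IGFBP3, IGFBP4 and IGFBP5 together, which does not depend on scaling between libraries, IGFBP5 made up 84.3%, 82.9% and 82.9% with DMSO and 89.5%, 90.5% and 91.7% with abemaciclib. Its mean share was 83.4% ± 0.805 with DMSO and 90.6% ± 1.06 with abemaciclib (SD, n = 3 in each group; exact permutation test, two-sided, P = 0.1, adjusted P = 0.15 over the 6 shares computed). The shares of IGFBP2 (9.87% ± 0.944 to 4.99% ± 0.998) and IGFBP4 (6.78% ± 0.387 to 4.46% ± 0.157) moved the other way, again with no overlap (exact permutation test, P = 0.1 and adjusted P = 0.15 for each, n = 3 in each group). Shares of 1 total are tied, so a rise of IGFBP5 forces the others down together, and these are not separate results. A lower share is not a lower level, as IGFBP4 rose in CPM. IGFBP3 was at most 0.0081% of the binding protein counts in a library (P = 0.4, exact permutation test, adjusted P = 0.48). With 3 libraries against 3 this test cannot go below 0.1, so no share could pass 0.05. The binding protein transcripts therefore were mostly IGFBP5 in both groups. The 9 members together took between 0.315% and 0.329% of all counts with DMSO and between 0.659% and 0.693% with abemaciclib. With IGFBP5 set aside, the other members summed to between 676.4 and 740.0 CPM with DMSO and between 814.7 and 937.9 CPM with abemaciclib.

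**Figure D3:**
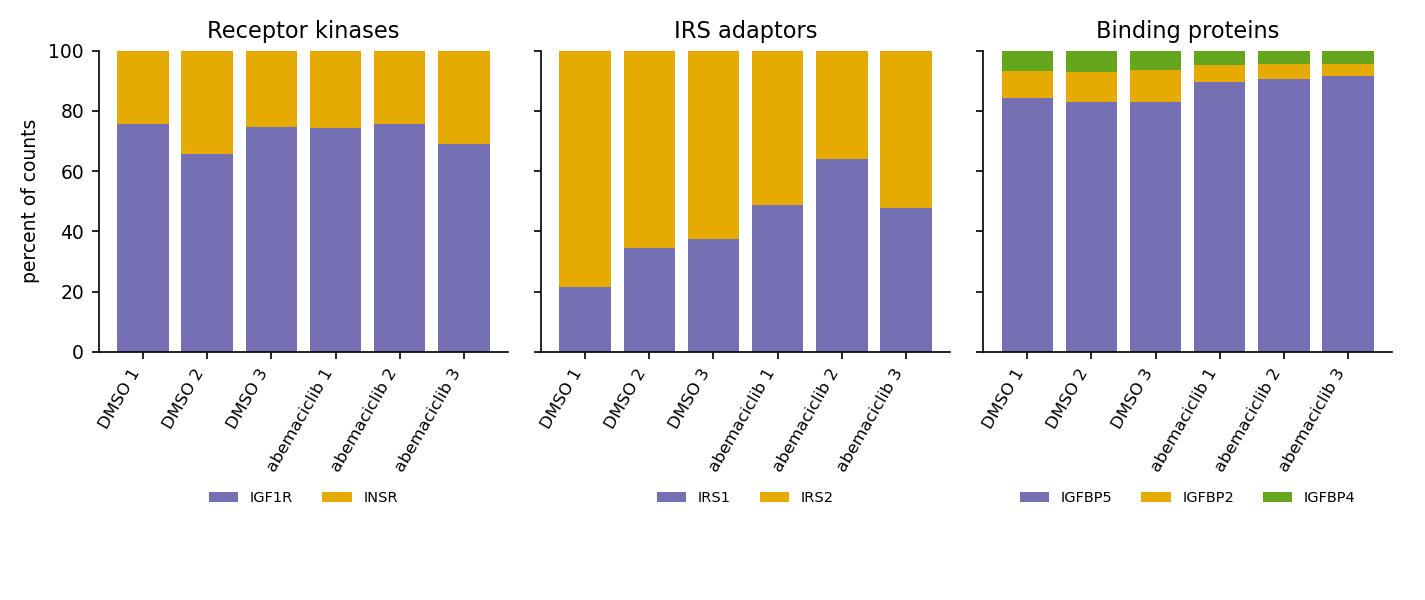
Percent of the counts of each small group of genes taken by each gene, with 1 bar per library: IGF1R and INSR, IRS1 and IRS2, and the binding proteins with more than 2 counts in some library. The IGFBP5 part is between 82.9% and 84.3% with DMSO and between 89.5% and 91.7% with abemaciclib, and the IRS1 part of the adaptors is higher in each treated library.

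Apart from IGFBP3, the adaptors were the members with the fewest counts with abemaciclib, and IRS1 was the lowest with DMSO, where IRS2 overlapped INSR. IRS2 (ENSG00000185950), on chromosome 13 from 109752695 to 109786583, encodes a docking protein for both receptor kinases and is a known target of FOXO factors. It had 77, 55 and 50 counts in the DMSO libraries and 20, 9 and 12 counts in the abemaciclib libraries, or 22.3, 16.3 and 15.1 CPM against 6.05, 2.22 and 3.24 CPM. The highest treated library was below the lowest control. The mean went from 17.9 ± 3.85 to 3.84 ± 1.98 CPM (SD, n = 3 in each group), which was 4.74-fold lower (95% interval 2.86 to 7.87). Its log2 fold change was -2.25 with a standard error of 0.36 (edgeR, adjusted P = 1.82e-05). The gene entered the test through its control libraries, since 2 of its 3 abemaciclib libraries reached the minimum of 2.93 CPM, which is 10 counts at the median depth. This minimum was set against counts over the library total, without TMM.

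IRS1 (ENSG00000169047), on chromosome 2 from 226731312 to 226799820, is the docking protein most tied to oestrogen-stimulated growth in breast cancer cells. It had 21, 29 and 30 counts with DMSO and 19, 16 and 11 counts with abemaciclib, or 6.09, 8.61 and 9.09 CPM against 5.75, 3.95 and 2.97 CPM. The groups did not overlap, by a margin of a few counts. The log2 fold change was -0.91 with a standard error of 0.42 (edgeR, adjusted P = 0.116, and 0.0393 before adjustment), so IRS1 did not pass the threshold. Without TMM, the scale of the filter, 2 of its 3 abemaciclib libraries reached the minimum, and the 2.97 CPM above is a TMM-scaled value. The share of IRS1 in the counts of both adaptors was 21.4%, 34.5% and 37.5% in the DMSO libraries and 48.7%, 64.0% and 47.8% in the abemaciclib libraries. These shares rest on 80 to 98 counts per DMSO library and 23 to 39 per abemaciclib library, and the 95% Wilson intervals of single libraries run, for example, from 27.7% to 48.5% in DMSO replicate 3 and from 29.2% to 67.0% in abemaciclib replicate 3. The mean share was 31.2% ± 8.55 with DMSO and 53.5% ± 9.09 with abemaciclib (SD, n = 3 in each group; exact permutation test, two-sided, P = 0.1, adjusted P = 0.15). IRS2 was thus the more abundant adaptor in each control library, and the adaptors were near parity after treatment at a lower total.

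Among the receptors, only IGF2R passed the threshold. IGF2R (ENSG00000197081), on chromosome 6 from 159969082 to 160113507, was at 124.1, 142.6 and 128.7 CPM in the DMSO libraries and 193.3, 211.2 and 185.9 CPM in the abemaciclib libraries, with each treated library above each control. It rose 1.49-fold (95% interval 1.28 to 1.74), a log2 fold change of 0.58 with a standard error of 0.11 (edgeR, adjusted P = 0.000144). Across the whole span of IGF2R, genes that overlap it held at most 5 counts in a library.

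The kinase receptors gave values that overlapped between groups. IGF1R (ENSG00000140443), on chromosome 15 from 98648539 to 98964530, was at 44.1, 36.5 and 47.6 CPM with DMSO and 47.2, 57.2 and 45.4 CPM with abemaciclib. Its fold change was 1.17 (95% interval 0.931 to 1.47, edgeR adjusted P = 0.333). INSR (ENSG00000171105), the insulin receptor, on chromosome 19 from 7112255 to 7294414, was at 14.2, 19.0 and 16.1 CPM with DMSO and 16.3, 18.5 and 20.3 CPM with abemaciclib, a fold change of 1.12 (95% interval 0.802 to 1.57, edgeR adjusted P = 0.671). Rises of up to 1.47-fold and 1.57-fold lie within these intervals. IGF1R made up 72.1% ± 5.45 of the counts of both kinase receptors with DMSO and 73.0% ± 3.41 with abemaciclib (SD, n = 3 in each group; exact permutation test, P = 0.9). The end of IGF1R overlaps SYNM-AS1 on the opposite strand, which had 0 counts in every library. Since the strand setting is not given, whether reads in this overlap were left uncounted cannot be told. No other member had another annotated gene within its last 1000 bases.

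**Figure D4:**
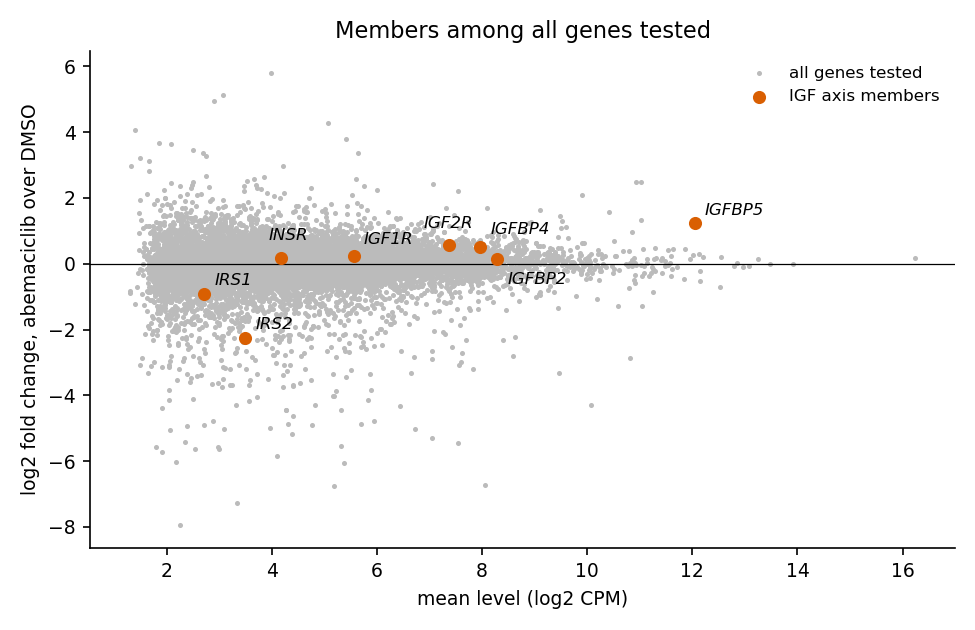
Log2 fold change, abemaciclib over DMSO, against mean level in log2 CPM for all 10863 genes tested (grey), with the 8 members marked. IGFBP5 lies at the high end of the level axis with a log2 fold change of 1.24, and IRS2 lies at a low level at -2.25.

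Other genes of the pathway were taken from 4 lists of 51 genes, of which 50 had a row (SOD2 was not matched) and 32 were tested. With abemaciclib, 4 of the 32 rose and 5 fell, against 12.5% and 13.3% of all genes tested, and the median log2 fold change was -0.019. The count of 5 lower was 3 without DMSO replicate 1, without DMSO replicate 2 and without DMSO replicate 3, and 3 when every library had to hold at least 10 counts.

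In the list of ligands, further binding proteins and proteases, 5 of the 10 genes were at 0 counts in every library, namely IGF2, IGFBP1, IGFBP6, IGFALS and PAPPA. IGF1 had 2 counts in 1 abemaciclib library and 0 in the others. The ligands IGF1 and IGF2 were therefore at or under the limit of detection at this depth. Insulin was not in the lists. Of the 3 genes of this list that were tested, 2 rose, against 12.5% of all genes tested. These 2 encode the stanniocalcins, secreted inhibitors of the pappalysin proteases that cleave IGF-binding proteins. STC1 rose from 59.0 ± 5.08 to 89.8 ± 7.41 CPM (log2 fold change 0.60, edgeR adjusted P = 0.000929) and STC2 from 33.6 ± 5.64 to 53.4 ± 0.51 CPM (0.67, adjusted P = 0.00289; SD, n = 3 in each group for both). The substrates of these proteases include IGFBP4 and IGFBP5. Of the proteases themselves, PAPPA was at 0 and PAPPA2 had between 0 and 5 counts in a library.

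Of 20 receptor-proximal regulators, 15 were tested, and 2 rose and 2 fell. Both counts are near the background, as 12.5% of all genes tested were higher and 13.3% were lower. PTPN1, the phosphatase that removes phosphate from the insulin receptor, went from a mean of 192.8 to 252.8 CPM, 0.39 higher on the log2 scale (edgeR, adjusted P = 0.00509). CBL, a ubiquitin ligase for receptor tyrosine kinases, was 0.64 higher (edgeR, adjusted P = 0.0217). SORL1, a sorting receptor, had a log2 fold change of -1.19 (edgeR, adjusted P = 0.00611), and that of CISH, a SOCS-family inhibitor of cytokine signalling, was -0.54 (edgeR, adjusted P = 0.0214). With a library left out, 3 of these could miss the threshold while keeping their direction. CISH missed it without any 1 DMSO library or without abemaciclib replicate 2, at log2 fold changes between -0.56 and -0.49 (edgeR, adjusted P between 0.0501 and 0.0789). CBL missed it without DMSO replicate 2, DMSO replicate 3 or abemaciclib replicate 2, at 0.54 to 0.63 (edgeR, adjusted P between 0.0701 and 0.108). SORL1 missed it without DMSO replicate 1, at -0.93 (edgeR, adjusted P = 0.0768). Adaptors that link the receptors to RAS, such as SHC1 and GRB2, were among the 11 that did not pass.

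The last list mixes FOXO factors with their targets, and it is the targets that PI3K signalling holds down. Of its 17 genes with a row, 14 were tested, and 3 fell and 0 rose. Over all genes tested, 13.3% were lower and 12.5% higher, so these counts differ from the background by few genes. The median log2 fold change was -0.24 over the 14 and -0.0018 over all genes tested. At an unadjusted P under 0.05, 1 gene, TXNIP, was higher by edgeR and by DESeq2, at a log2 fold change of 0.22 in edgeR, and DESeq2 also called 0 of the 14 higher after adjustment. The log2 fold change was -1.53 for KLHL24 (adjusted P = 0.00311), -0.84 for FBXO32 (adjusted P = 0.00826), a ubiquitin ligase of muscle atrophy, and -1.69 for SESN1, a stress-induced sestrin (adjusted P = 0.0219, edgeR for all). SESN1 entered the test through its control libraries alone, and KLHL24 had 2 abemaciclib libraries over the minimum. The call of SESN1 was lost when replicate 2 or 3 of either group was left out (log2 fold changes between -1.73 and -1.36, edgeR adjusted P between 0.0663 and 0.11), and that of FBXO32 without DMSO replicate 3 (-0.71, adjusted P = 0.0565). The 3 genes that encode IGF2 mRNA-binding proteins were not tested. Of these, IGF2BP2 had 15, 24 and 8 counts with DMSO and 1, 7 and 6 with abemaciclib. Without a filter on low counts, IGF2BP2 passed the threshold as lower.

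**Figure D5:**
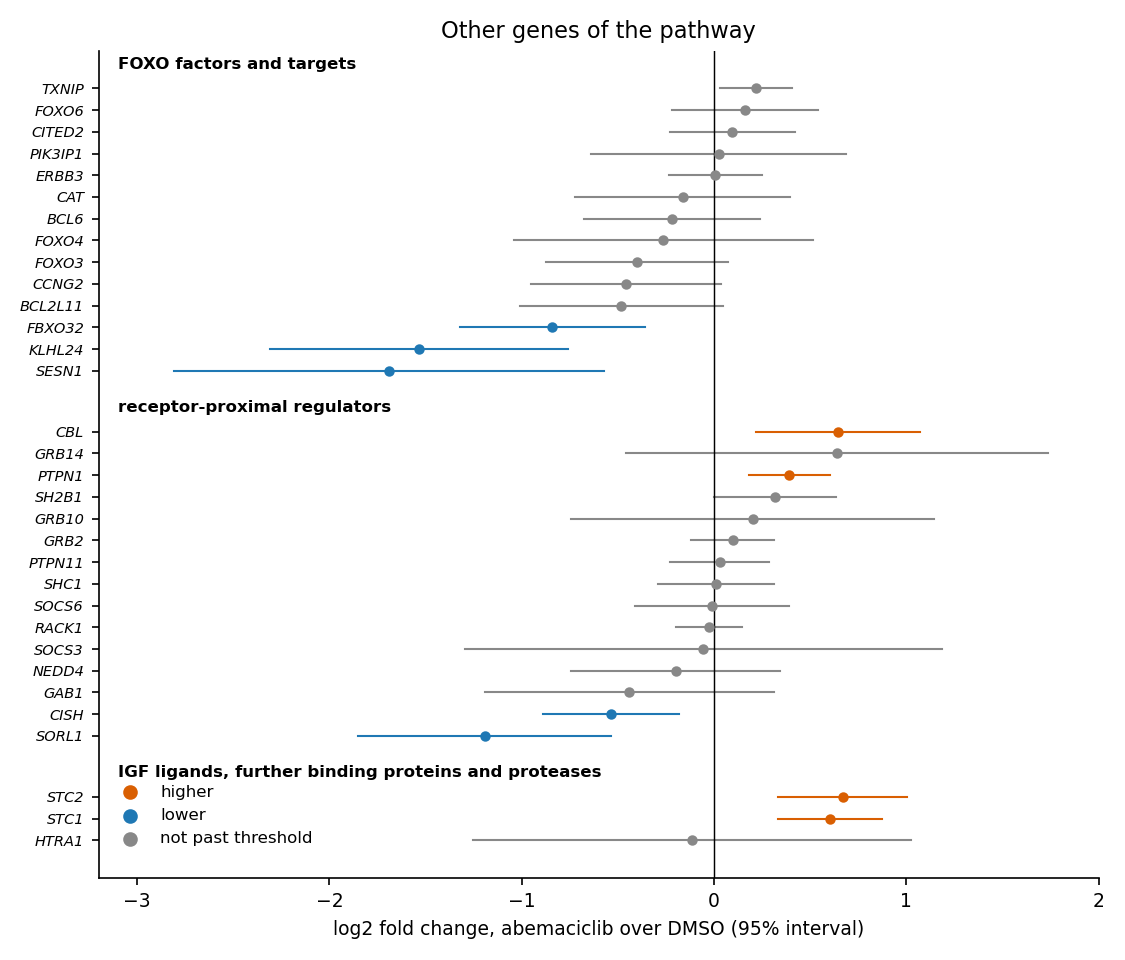
Log2 fold change, abemaciclib over DMSO, with its 95% interval, for the 32 tested genes of the pathway lists, grouped by list. STC1, STC2, PTPN1 and CBL are higher, SORL1, CISH, FBXO32, KLHL24 and SESN1 are lower, and the other 23 did not pass the threshold.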

How the data were processed

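Counts were analysed for 6 libraries of parental ZR-75-1 cells, grouped by treatment as their labels give it. For 3′ mRNA libraries read from 1 end, the authors removed adapters and low-quality sequence, aligned what was left to hg38 with STAR (2.7.5b) and assigned reads to GENCODE genes with featureCounts (2.0.1), and the deposited values are unnormalized counts per gene. Whether reads were counted by strand is not given in the sources used here. Ensembl identifiers were matched to symbols for 60401 of 60656 rows. Positions are from GENCODE 44 on the same assembly.

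Genes were filtered with filterByExpr and scaled by TMM in edgeR 4.0.16 (R 4.3.3). Abemaciclib was compared with DMSO, as the only term, by glmQLFTest, and P values were adjusted by the Benjamini–Hochberg method across the 10863 genes that remained. Standard errors are the log2 fold change over the square root of F. Common variation between replicates was 13.2%. Fits were tested on simulated counts. Shares within a library were compared by exact permutation (scipy 1.17.1). The members and lists were chosen with earlier results of these data known. All members are named, with the pathway genes past the threshold (at most 8 in a list), IGF1, IGF2, ESR1, GATA3, KRT8 and MKI67, and a gene on the opposite strand at the end of a member. Any other gene was picked with its values in view. Alternatives were DESeq2 1.42.0, its size factors, total counts, other filters, a replicate block, each library left out, and other denominators and summed counts for the shares.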

Additional observations from a re-analysis of the deposited data

How the results depend on the processing

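Of 191 values for the members, the shares and the counts of genes under an alternative, 183 were the same. This meant the same direction and call for members, the same direction for shares, and within 1.5 times for counts. Some could not differ. The wider denominators of the IRS1 and binding protein shares added only genes at 0 counts, and the IGFBP3 share was 0 with DMSO. The log2 fold changes of IGFBP5 (1.22 to 1.27), IGFBP4 (0.48 to 0.56), IGF2R (0.53 to 0.64) and IRS2 (-2.71 to -1.95) passed the threshold under every alternative that gave a value. IRS2 had none with at least 10 counts in every library, since 1 library held 9. IGFBP2 passed without abemaciclib replicate 3, and its log2 fold change was between 0.024 and 0.27 with a library left out. IRS1 passed under no alternative (adjusted P between 0.0536 and 0.291). The difference in the IGF1R share (0.944 percentage points) was between -2.19 and 2.87 with a library left out and -3.65 with IGF2R in the denominator. The count of 5 pathway genes lower was 3 with at least 10 counts in every library, which by construction leaves out KLHL24 and SESN1, and between 3 and 6 with a library left out. KRT8, at a log2 fold change of -0.0088, was between -0.063 and 0.064 with a library left out, above 0 without DMSO replicate 3 (0.022) or abemaciclib replicate 3. Another 154 values were for the pathway genes past the threshold and for ESR1, GATA3, KRT8 and MKI67. Of these, 13 lost the call, 1 gained it (GATA3, without abemaciclib replicate 3) and 2 reversed. Further genes named in the text were not followed in this way. With the replicate block, 1139 genes were higher and 1280 lower, against 1354 and 1442. Whether same-numbered libraries were handled together is not given by the labels. Their deviations from the group means had correlations of -0.043, 0.0071 and -0.089. The largest correlation, 0.0959, was between DMSO replicate 1 and abemaciclib replicate 3. With 3 libraries in each group, such values cannot settle whether the libraries were paired. The block changed no call of a member or of a named pathway gene. The shift of the median of all genes under another scaling was largest with total counts, at -0.016. At this depth the adaptors, with 9 to 77 counts per library, had the widest intervals of the 8 members tested.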
